A study of Mus musculus with 12 samples.

Results

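Iron storage and transport genes were followed in microglia, the resident macrophages of the brain, with and without *Hdac3* and with and without stroke. The set held 8 genes, named by symbol with earlier results of these data known: the ferritin chains *Fth1* and *Ftl1*, the exporter *Slc40a1* and its partner *Cp*, the transferrin receptor *Tfrc*, the transporters *Slc11a1* and *Slc11a2*, and the regulator *Ireb2*. All 8 were found among the 55401 gene identifiers counted, and all 8 were among the 16451 that passed the filter on low counts. The data were bulk RNA-seq of CD45intCD11b+ cells sorted from the brains of male mice, 12 libraries in 4 groups of 3.

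The WT mice carried HDAC3 loxp/loxp alleles with both *Cx3cr1* copies intact, and the HDAC3-miKO mice (miKO) carried the same floxed alleles with CreER in 1 *Cx3cr1* copy. Deletion was induced with tamoxifen, 100 mg/kg on 5 consecutive days at 6 to 8 weeks of age, and surgery followed at least a month later. In the tFCI groups (transient focal cerebral ischemia) a filament blocked the middle cerebral artery for 60 min, and in the Sham groups the artery was exposed but not blocked. Cells were isolated on day 3, and each replicate pooled 3 to 4 hemispheres, so that a library is a pool of animals. CreER follows the *Cx3cr1* promoter, which other macrophages of the brain borders also use, and the loss of 1 *Cx3cr1* copy goes with the miKO genotype in every comparison.

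Iron enters cells bound to transferrin through the transferrin receptor or is recovered from engulfed red cells and debris. It crosses the membranes of endosomes and phagosomes through the divalent metal transporters of the SLC11 family. Ferritin cages of heavy and light chains store it, and ferroportin, the product of *Slc40a1*, is the known cellular iron exporter, with ceruloplasmin (*Cp*) oxidising the iron that leaves. Iron regulatory proteins, one of them encoded by *Ireb2*, bind a hairpin called the iron-responsive element (IRE) when iron is scarce: in a 5′ UTR the binding blocks translation, and in the 3′ UTR of *Tfrc* it protects the transcript from decay. The counts analysed here measure transcripts and carry no information on translation or protein.

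The hairpins are printed because the matches found lay in the 5′ UTR of some members and in the 3′ UTR of another. Transcripts of the GENCODE M21 annotation (GRCm38) were searched on their own strand for a C, 5 bases, the loop CAGTGN and 5 bases able to pair with the first 5 (G-T pairs allowed), and capitals mark the C and the loop. Such a match lay in the 5′ UTR of 3 members, in exon 1 of each: *Fth1* (chr19:9982731-9982760, plus strand), *Ftl1* (chr7:45459779-45459808, minus strand) and *Slc40a1* (chr1:45925465-45925494, minus strand). Only *Tfrc* among the 8 had matches in its 3′ UTR, 4 of them in exon 19 (plus strand): A at chr16:32631218-32631247, B at chr16:32631597-32631626, C at chr16:32631662-32631691 and D at chr16:32631709-32631738.
Fth1: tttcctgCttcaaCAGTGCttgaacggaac
Ftl1: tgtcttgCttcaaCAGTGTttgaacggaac
Slc40a1: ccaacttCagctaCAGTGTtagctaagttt
Tfrc A: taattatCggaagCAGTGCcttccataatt
Tfrc B: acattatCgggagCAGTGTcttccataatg
Tfrc C: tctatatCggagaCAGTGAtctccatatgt
Tfrc D: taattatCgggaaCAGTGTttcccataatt
The ferritin chains share the 5 bases on each side of the loop, whereas *Slc40a1* and *Tfrc* have stems of their own. A match of this kind was rare over the annotation, in the 5′ UTR of 31 of 21812 protein-coding genes (0.142%) and in the 3′ UTR of 129 (0.591%). These letters were not found in the annotated transcripts of *Slc11a1*, *Slc11a2*, *Cp* and *Ireb2*. The search asks for all 5 bases to pair and misses a hairpin with an unpaired base in this stem. The lack of a match therefore does not show that these genes lack an element.

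Between 7697864 and 9452222 reads were counted on genes per library (median 8226429.5), and levels are given as CPM, a gene's count per 1000000 counts on genes, with totals adjusted by the TMM factor. *Hdac3* was lower in the miKO libraries, with 35, 44 and 46.4 CPM in WT-Sham against 25.8, 25 and 20.9 in miKO-Sham (log2 fold change -0.81, edgeR adjusted p = 0.00281), and it differed in the same direction after tFCI (-0.71, edgeR adjusted p = 0.0127, or 0.0705 without WT-tFCI replicate 2). All 10 microglia markers listed were detected, and their summed level ran from 29300 to 38700 CPM in WT-Sham, 27300 to 32300 in miKO-Sham, 20900 to 23300 in WT-tFCI and 10500 to 20300 in miKO-tFCI. Replicate 1 of each group was sequenced in batch 1 and the others in batch 2. The tFCI libraries of batch 1 stood apart: the sum of 10 choroid plexus markers, none of them at 0, was 5070 CPM in WT-tFCI replicate 1 and 12700 in miKO-tFCI replicate 1, against 321 to 1050 in the other tFCI libraries. Mitochondrial genes took 3.40% and 4.67% of the counts in these 2 libraries, 1.36% to 2.16% in the other tFCI libraries, 0.487% to 1.42% in WT-Sham and 0.559% to 1.98% in miKO-Sham. Of all pairs of replicates, the least apart in their counts were miKO-Sham replicates 1 and 2 (chi-square per degree of freedom 2.76, against 3.67 to 83.7), although the labels place them in different batches. They differed by more than sampling noise, which does not show that they came from different pools of cells. They were kept as separate libraries, and the 3 miKO-Sham libraries may therefore not all be independent. Results that change when they are averaged are marked.

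Per kilobase of the reference transcript, the ferritin chains stood far above the other members in every group. In WT-Sham the levels were 2454 ± 344 CPM per kb for *Fth1* and 2269 ± 444 for *Ftl1* (SD, n = 3), followed by *Slc11a1* at 122 ± 6.82 and *Slc40a1* at 47.5 ± 14.7. *Slc11a2* (10.8 ± 0.265), *Ireb2* (6.92 ± 0.356), *Cp* (4.33 ± 0.833) and *Tfrc* (1.57 ± 0.471 CPM per kb) closed the order. The ranges of *Fth1* and *Ftl1* overlapped in WT-Sham, and no other neighbours did. In miKO-tFCI *Fth1* reached 13540 ± 930 CPM per kb and *Ftl1* 6361 ± 258, without overlap, whereas *Slc40a1* (14.9 to 50.2), *Cp* (15.2 to 36) and *Slc11a2* (13.4 to 18.9) overlapped one another. With the length of all annotated exons in place of the reference transcript, *Ftl1* stood above *Fth1* in all 4 groups, so that their order rests on the length used. By raw count *Fth1* ranked 34th to 42nd of all genes in the WT-Sham libraries and 4th or 5th in the miKO-tFCI libraries.

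**Figure D1:**
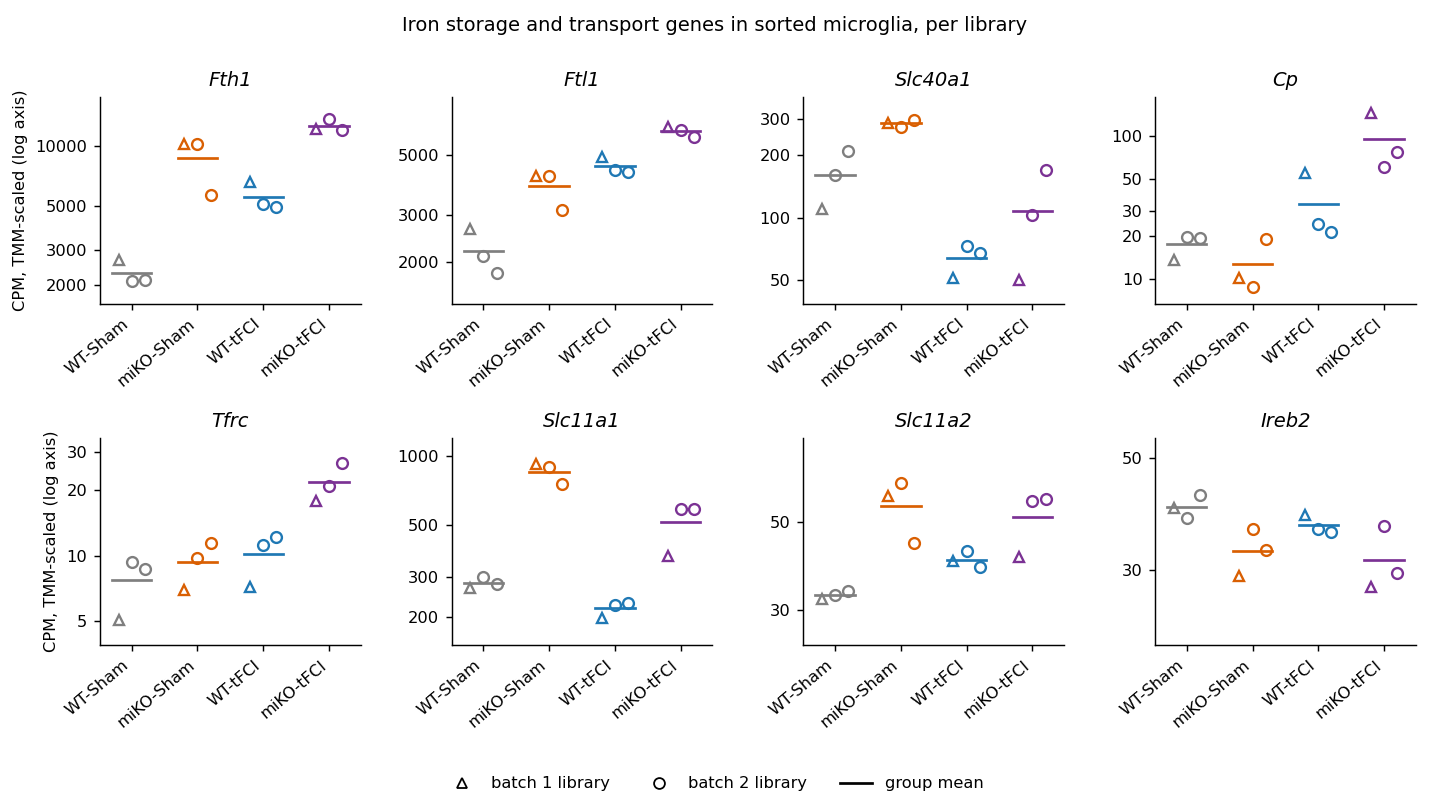
Level of each of the 8 iron genes in every library, in TMM-scaled CPM on a log axis whose range differs between panels. Triangles are batch 1 libraries, circles batch 2 libraries and lines group means of 3 libraries; *Fth1* rises from 2090 to 2650 CPM in WT-Sham to 12000 to 13600 in miKO-tFCI, and *Slc40a1* lies from 110 to 294 CPM in the Sham libraries and from 50.3 to 169 in the tFCI libraries.

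The set did not move as a block. After tFCI in WT mice, both ferritin chains rose and *Slc40a1* fell, so that 3 of 8 members passed the test (edgeR's quasi-likelihood test on group and batch, Benjamini-Hochberg adjusted p under 0.05), beside 38.9% of all genes tested, 23.5% higher and 15.4% lower. After tFCI in miKO mice 6 of 8 passed, beside 42.3% of all genes, 24.5% higher and 17.7% lower: *Fth1*, *Ftl1*, *Cp* and *Tfrc* rose, and *Slc40a1* and *Slc11a1* fell. In miKO-Sham vs. WT-Sham 5 of 8 were higher (*Fth1*, *Ftl1*, *Slc40a1*, *Slc11a1* and *Slc11a2*), beside 18.1% of all genes, 9.94% higher and 8.12% lower. In miKO-tFCI vs. WT-tFCI 4 of 8 were higher (*Fth1*, *Cp*, *Tfrc* and *Slc11a1*), beside 9.90% of all genes, 4.50% higher and 5.40% lower. The difference between the genotype effects after tFCI and after Sham passed for *Cp* alone, 1 of 8, beside 3.82% of all genes, 1.25% with a higher and 2.57% with a lower value. The sum of 10 monocyte and macrophage markers also differed between the groups. It was 17 to 97.6 CPM in WT-Sham, 65.2 to 126 in miKO-Sham, 400 to 721 in WT-tFCI and 573 to 1240 in miKO-tFCI. *Fn1* alone gave 0.205 to 3.25, 2.22 to 12.3, 296 to 446 and 122 to 358 CPM of these sums, in the same order. None of the 10 markers was at 0 in all libraries. Of the 10 markers 6 rose after tFCI in WT mice and 8 in miKO mice. By edgeR 1 was higher in miKO-Sham than in WT-Sham and 4 in miKO-tFCI than in WT-tFCI, and none was lower. Their part in the differences of the iron genes was not tested.

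With the study's further limit of an absolute log2 fold change above 0.58, all of these calls stayed apart from *Fth1* in miKO-tFCI vs. miKO-Sham, beside 32.6%, 35.8%, 15.4%, 8.79% and 3.82% of all genes in the order given. The median log2 fold change of the members was 0.35, 0.24, 0.78 and 0.90 in the first 4 of these comparisons, against 0.02, 0.03, 0.04 and 0.04 for all genes tested. The libraries of the compared groups did not overlap for 6, 6, 6 and 5 members, beside 49.8%, 48.2%, 33.2% and 22.9% of all genes. Each group enters 2 of these 4 comparisons, and so their values are given side by side and not as independent results. Without miKO-tFCI replicate 1, which adds *Cp* and *Slc11a1*, 5 members passed in WT-tFCI vs. WT-Sham. The split of all genes in miKO-Sham vs. WT-Sham, 1636 higher and 1336 lower, became 972 and 3070 when counts were scaled by their total alone, that in miKO-tFCI vs. WT-tFCI went from 741 and 888 to 558 and 1288, and that of the interaction from 206 and 423 to 292 and 279.

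**Figure D2:**
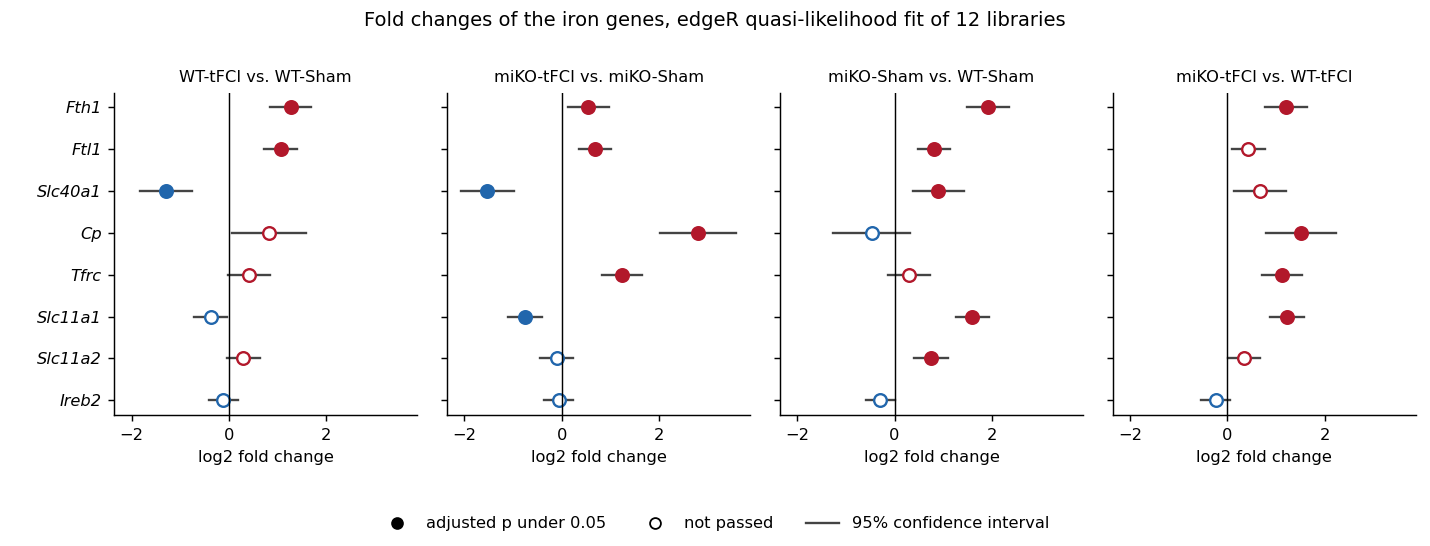
Log2 fold change of the 8 genes in the 4 comparisons between groups, with 95% confidence intervals from the edgeR fit of 12 libraries. Filled points have an adjusted p under 0.05 and open points do not, red points lie above and blue points below 0; *Slc40a1* lies below 0 in both comparisons of tFCI with Sham and above 0 in both comparisons of miKO with WT.

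*Fth1* (chr19:9980598-9985098, plus strand) encodes the ferritin heavy chain, which carries the ferroxidase centre that oxidises incoming iron. Its level was 2650, 2090 and 2100 CPM in WT-Sham and 6590, 5070 and 4940 CPM in WT-tFCI, and it was 10200, 10200 and 5670 CPM in miKO-Sham and 12100, 13600 and 12000 CPM in miKO-tFCI. Every tFCI library lay above the Sham libraries of its genotype, and every miKO library above the WT libraries of the same surgery. *Fth1* rose 2.42-fold in WT-tFCI vs. WT-Sham (log2 fold change 1.28, SE 0.20, edgeR adjusted p = 0.000186). It was 3.81-fold higher in miKO-Sham than in WT-Sham (1.93, SE 0.20, edgeR adjusted p = 1.15e-05), the largest fold among the members in that comparison, and 2.31-fold higher in miKO-tFCI than in WT-tFCI (1.20, SE 0.20, edgeR adjusted p = 0.00175). In miKO-tFCI vs. miKO-Sham it rose by a log2 fold change of 0.55 (SE 0.20, edgeR adjusted p = 0.0357), with 0.25 in batch 1 and 0.75 in batch 2. The last call was lost in 12 of 28 alternatives. The adjusted p from edgeR lay between 0.0509 and 0.141 without any 1 of WT-Sham replicate 2 or 3, miKO-Sham replicate 1 or 3, WT-tFCI replicate 1, 2 or 3, and miKO-tFCI replicate 2 or 3. With 1 library left out the lowest value was 0.33, without miKO-Sham replicate 3, the low library of its group. With miKO-Sham replicates 1 and 2 averaged the adjusted p from edgeR was 0.0656, without the batch term 0.0789 and with only the compared groups fitted 0.203. The interaction was -0.72 (SE 0.28) and did not pass (edgeR adjusted p = 0.187, or 0.0267 without miKO-Sham replicate 3).

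*Ftl1* (chr7:45457944-45459884, minus strand) encodes the ferritin light chain, which aids the deposition of the iron core. Its level was 2660, 2110 and 1820 CPM in WT-Sham, 4180, 4190 and 3120 in miKO-Sham, 4950, 4430 and 4320 in WT-tFCI and 6370, 6210 and 5880 in miKO-tFCI. The 4 groups followed each other in that order without overlap. *Ftl1* rose 2.09-fold in WT-tFCI vs. WT-Sham (log2 fold change 1.07, SE 0.16, edgeR adjusted p = 0.000108) and 1.61-fold in miKO-tFCI vs. miKO-Sham (0.69, SE 0.16, edgeR adjusted p = 0.00267, or 0.0550 with only these groups fitted). It was 1.76-fold higher in miKO-Sham than in WT-Sham (0.81, SE 0.16, edgeR adjusted p = 0.00195). In miKO-tFCI vs. WT-tFCI the log2 fold change was 0.43 (95% confidence interval 0.10 to 0.77), which did not pass in edgeR (adjusted p = 0.0937) and did in DESeq2 (adjusted p = 0.00834). The first exon of *Ftl1*, hairpin included, lies within the gene *Gm10252* on the other strand, which held 12555 to 50487 counts, and because the library kit does not mark strand their reads cannot be told apart. With *Gm10252* added to *Ftl1*, the log2 fold changes were 1.13 after tFCI in WT mice, 0.70 after tFCI in miKO mice, 0.86 for miKO-Sham against WT-Sham and 0.44 for miKO-tFCI against WT-tFCI. Near-identical ferritin copies held at most 2.56% (*Ftl1-ps1*) and 1.82% (*Ftl2-ps*) of the *Ftl1* counts and 0.186% (*Fth-ps2*) of the *Fth1* counts, and adding them moved no call.

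The balance of the ferritin chain counts differed between the miKO and the WT libraries. The ratio of *Fth1* to *Ftl1* counts was 0.995, 0.989 and 1.16 in WT-Sham and 1.33, 1.14 and 1.14 in WT-tFCI, and it was 2.45, 2.42 and 1.82 in miKO-Sham and 1.90, 2.19 and 2.05 in miKO-tFCI. Every miKO library had a higher ratio than any WT library. The ratios 2.45 and 2.42 were those of miKO-Sham replicates 1 and 2, and the ratio was not recomputed with these averaged. These *Ftl1* counts leave out the reads counted on *Gm10252*. That gene stood at 1290 to 2030 CPM in WT-Sham, 2450 to 3480 in miKO-Sham, 3590 to 3970 in WT-tFCI and 4880 to 5210 in miKO-tFCI. The values of the ratio and of the share of both chains rest on how those reads are assigned. The log2 ratio was 1.08 higher in miKO-Sham than in WT-Sham and 0.76 higher in miKO-tFCI than in WT-tFCI (p = 0.1 in each, exact two-sided permutation test, the smallest p that 3 against 3 libraries can give). The differences between tFCI and Sham were 0.20 in WT and -0.11 in miKO (p = 0.3 and 0.6, exact two-sided permutation test). Together the chains made up 0.484% ± 0.064 of all counts on genes in WT-Sham, 1.11% ± 0.23 in miKO-Sham, 1.06% ± 0.11 in WT-tFCI and 1.83% ± 0.14 in miKO-tFCI (SD, n = 3). In RNA from sorted pools, a change in the kinds of cells collected and a change of the RNA within a cell cannot be told apart.

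**Figure D3:**
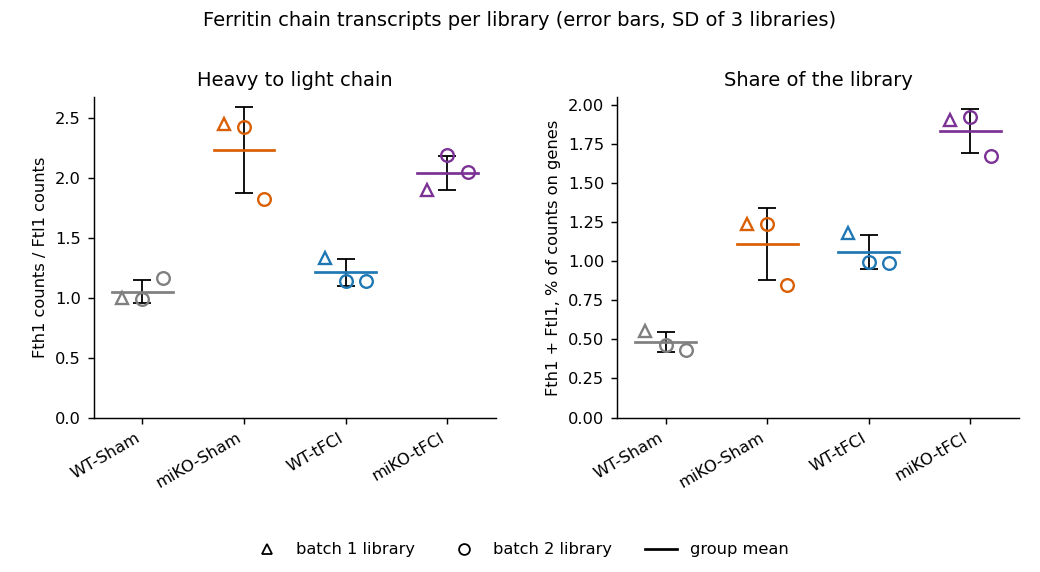
Ratio of *Fth1* to *Ftl1* counts (left) and the share of both in all counts on genes, in percent (right), for each of the 12 libraries. Triangles are batch 1 and circles batch 2 libraries, coloured lines are group means and black bars are the SD of 3 libraries; the miKO ratios lie from 1.82 to 2.45 and the WT ratios from 0.989 to 1.33.

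*Slc40a1* (chr1:45908068-45926523, minus strand), the gene of ferroportin, fell after tFCI in both genotypes and was higher in miKO-Sham than in WT-Sham. Its level was 110, 160 and 209 CPM in WT-Sham and 51.1, 73.4 and 68 CPM in WT-tFCI, and it was 287, 274 and 294 CPM in miKO-Sham and 50.3, 103 and 169 CPM in miKO-tFCI. Every tFCI library lay below the Sham libraries of its genotype, and the miKO-Sham libraries lay above all others. *Slc40a1* fell 2.45-fold in WT-tFCI vs. WT-Sham (log2 fold change -1.29, SE 0.25, edgeR adjusted p = 0.000963) and 2.89-fold in miKO-tFCI vs. miKO-Sham (-1.53, SE 0.25, edgeR adjusted p = 0.000246), where batch 1 gave -2.51 and batch 2 gave -1.11. It was 1.87-fold higher in miKO-Sham than in WT-Sham (0.90, SE 0.25, edgeR adjusted p = 0.0185). This call was lost without WT-Sham replicate 1 (0.84, edgeR adjusted p = 0.0631), without WT-Sham replicate 2 (0.81, edgeR adjusted p = 0.0750), without miKO-Sham replicate 1 (0.58, edgeR adjusted p = 0.126), and with miKO-Sham replicates 1 and 2 averaged (0.60, edgeR adjusted p = 0.114). After tFCI the groups overlapped, with a log2 fold change of 0.67 (edgeR adjusted p = 0.105). The batches gave -0.02 and 0.90. The difference passed in 6 of 28 alternatives, among them DESeq2 (0.68, adjusted p = 0.0446) and edgeR without miKO-tFCI replicate 1 (0.94, adjusted p = 0.0166) or without both tFCI libraries of batch 1 (0.90, adjusted p = 0.0319). Without miKO-tFCI replicate 3 it was 0.28.

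*Cp* (chr3:19957054-20009145, plus strand) encodes ceruloplasmin, the copper ferroxidase that works with ferroportin. Its level was 13.6, 19.5 and 19.3 CPM in WT-Sham, 10.1, 8.74 and 19.1 in miKO-Sham, 54.8, 24.4 and 21.4 in WT-tFCI and 145, 61.2 and 77.7 in miKO-tFCI. The miKO-tFCI libraries lay above all others, and in both tFCI groups replicate 1 was the highest. *Cp* rose 6.98-fold in miKO-tFCI vs. miKO-Sham (log2 fold change 2.80, SE 0.37, edgeR adjusted p = 3.83e-05) and was 2.84-fold higher in miKO-tFCI than in WT-tFCI (1.51, SE 0.34, edgeR adjusted p = 0.0120). It did not pass in WT-tFCI vs. WT-Sham, at 0.83 (edgeR adjusted p = 0.0785) with 1.99 in batch 1 and 0.23 in batch 2, nor in miKO-Sham vs. WT-Sham, at -0.47 (edgeR adjusted p = 0.427). The genotype effect was larger after tFCI than after Sham by 1.98 on the log2 scale (SE 0.50, edgeR adjusted p = 0.0393), with 1.81 in batch 1 and 2.16 in batch 2.

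In each tFCI group the library with the highest *Cp* was also the richest in markers of the choroid plexus, whose epithelium makes cerebrospinal fluid. The summed level of the 10 markers was 291 to 449 CPM in WT-Sham, 727 to 1370 in miKO-Sham, 321 to 5070 in WT-tFCI and 885 to 12700 in miKO-tFCI, and none was at 0 in all libraries. Astrocyte markers, from a cell type that also makes ceruloplasmin, differed between the groups as well. Their sum was 204 to 214 CPM in WT-Sham, 157 to 199 in miKO-Sham, 214 to 635 in WT-tFCI and 351 to 1590 in miKO-tFCI. *Slc1a3* gave 174 to 184, 96.3 to 117, 99.9 to 120 and 53.4 to 86.1 CPM of these sums, in the same order. By edgeR 7 of the 10 astrocyte markers rose and 1 fell after tFCI in WT mice. In miKO mice 9 rose and 1 fell. Without both tFCI libraries of batch 1, *Cp* rose in miKO-tFCI vs. miKO-Sham (log2 fold change 2.28, edgeR adjusted p = 2.03e-05) and was higher in miKO-tFCI than in WT-tFCI (1.56, edgeR adjusted p = 0.00214), and the interaction was 2.02 (edgeR adjusted p = 0.00476), while the log2 fold change in WT-tFCI vs. WT-Sham was 0.25. In miKO-Sham replicates 1 and 2 the choroid plexus sum was 1370 and 1350 CPM, and *Cp* was 10.1 and 8.74 CPM. In miKO-tFCI replicates 2 and 3 the sum was 885 and 1050 CPM, and *Cp* was 61.2 and 77.7 CPM. The part of other cell types in the level of *Cp* was not tested.

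**Figure D4:**
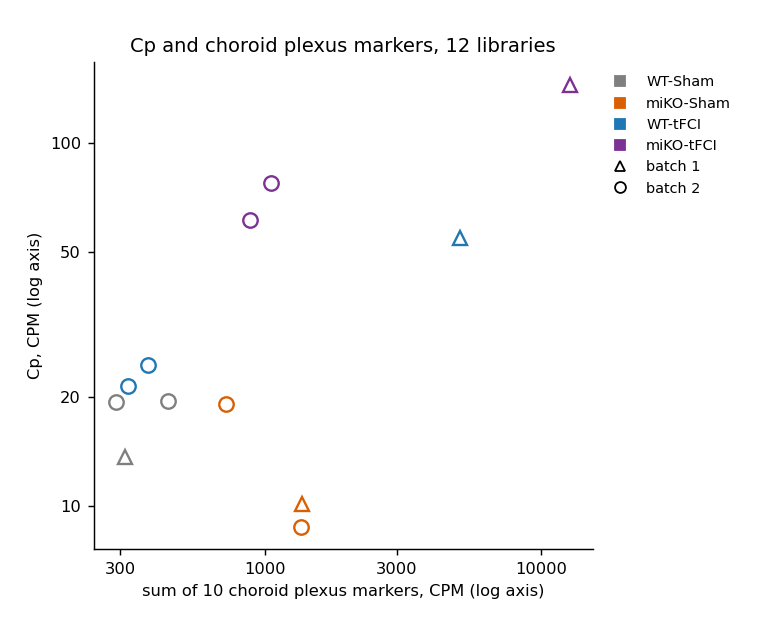
*Cp* against the summed level of 10 choroid plexus markers in the 12 libraries, both in TMM-scaled CPM on log axes. Colours are groups, triangles batch 1 and circles batch 2; the tFCI libraries of batch 1 lie far to the right, and the miKO-tFCI libraries of batch 2 lie above the miKO-Sham libraries at a like marker sum.

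Several calls on *Cp* rested on single libraries. The difference between miKO-tFCI and WT-tFCI lost its call without WT-tFCI replicate 2 (log2 fold change 1.41, edgeR adjusted p = 0.0632), WT-tFCI replicate 3 (1.34, edgeR adjusted p = 0.0702), miKO-tFCI replicate 1 (1.15, edgeR adjusted p = 0.0726) or the batch term (1.50, edgeR adjusted p = 0.0534). The interaction kept a value between 1.62 and 2.56 without any 1 library, and it was no longer called (edgeR adjusted p 0.0536 to 0.109) without WT-Sham replicate 2 or 3, miKO-Sham replicate 1 or 2, WT-tFCI replicate 2 or 3, or miKO-tFCI replicate 1 or 3, nor with miKO-Sham replicates 1 and 2 averaged (edgeR adjusted p = 0.0962) or without the batch term (edgeR adjusted p = 0.128). The difference between WT-tFCI and WT-Sham passed in 5 of 28 alternatives. *Cp* shares 108 exonic bases with *Hps3* on the other strand, whose level was 118 to 141 CPM in WT-Sham and 35.3 to 83.4 in miKO-tFCI.

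*Tfrc* (chr16:32608920-32632794, plus strand), the receptor that takes up transferrin-bound iron, was the lowest of the members per kilobase and passed the test in the 2 comparisons that involve miKO-tFCI. Its level was 5.05, 9.30 and 8.72 CPM in WT-Sham, 6.94, 9.71 and 11.4 in miKO-Sham, 7.18, 11.2 and 12.2 in WT-tFCI and 17.8, 21 and 26.8 in miKO-tFCI. The first 3 groups overlapped, and the miKO-tFCI libraries lay above all of them. *Tfrc* rose 2.36-fold in miKO-tFCI vs. miKO-Sham (log2 fold change 1.24, SE 0.20, edgeR adjusted p = 0.000188) and was 2.18-fold higher in miKO-tFCI than in WT-tFCI (1.12, SE 0.19, edgeR adjusted p = 0.00233). Within batches 1 and 2 the values were 1.33 and 1.16 for the first and 1.28 and 1.01 for the second, batch 1 having 1 library per group. The second lost its call without the batch term (1.10, edgeR adjusted p = 0.0517). The log2 fold change in WT-tFCI vs. WT-Sham, 0.41 (95% confidence interval -0.02 to 0.84), and that in miKO-Sham vs. WT-Sham, 0.30 (-0.14 to 0.73), did not pass. The difference between the genotype effects, 0.83 (SE 0.28), did not pass after adjustment (edgeR adjusted p = 0.130), so that a larger genotype effect after tFCI was not shown. With 42 to 217 counts per library, *Tfrc* is the member with the least depth behind it.

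*Slc11a1* (chr1:74375195-74386062, plus strand) encodes NRAMP1, which carries divalent metals out of the phagosome and is known for resistance to intracellular pathogens. Its level was 269, 300 and 278 CPM in WT-Sham and 198, 227 and 231 CPM in WT-tFCI, and it was 916, 889 and 755 CPM in miKO-Sham and 367, 587 and 589 CPM in miKO-tFCI. All miKO libraries lay above all WT libraries, whatever the surgery. *Slc11a1* was 3.04-fold higher in miKO-Sham than in WT-Sham (log2 fold change 1.60, SE 0.16, edgeR adjusted p = 8.09e-06) and 2.33-fold higher in miKO-tFCI than in WT-tFCI (1.22, SE 0.16, edgeR adjusted p = 0.000297). It fell 1.69-fold in miKO-tFCI vs. miKO-Sham (-0.75, SE 0.16, edgeR adjusted p = 0.00170), with -1.32 in batch 1 and -0.48 in batch 2. Its log2 fold change in WT-tFCI vs. WT-Sham, -0.37, did not pass in edgeR (adjusted p = 0.0783) and did in DESeq2 (adjusted p = 0.0391). The calls on *Slc11a1* held without any 1 library.

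*Slc11a2* (chr15:100387898-100425072, minus strand) encodes DMT1, the transporter through which iron leaves the endosome after uptake by the transferrin receptor. Its level was 31.9, 32.8 and 33.4 CPM in WT-Sham, 57.9, 62.4 and 44.2 in miKO-Sham, 39.9, 42.2 and 38.4 in WT-tFCI and 40.7, 56.4 and 57.1 in miKO-tFCI. The WT-Sham libraries lay below all others, and the groups after tFCI overlapped. *Slc11a2* was 1.68-fold higher in miKO-Sham than in WT-Sham (log2 fold change 0.75, SE 0.16, edgeR adjusted p = 0.00401), without overlap and with 0.86 and 0.66 in the batches. In miKO-tFCI vs. WT-tFCI the log2 fold change was 0.35 (95% confidence interval 0.01 to 0.68, edgeR adjusted p = 0.177), in WT-tFCI vs. WT-Sham 0.30 (-0.04 to 0.64) and in miKO-tFCI vs. miKO-Sham -0.10 (-0.44 to 0.23). It overlaps *Gm5475* on the other strand by 402 exonic bases, and that gene held 5 to 32 counts.

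*Ireb2* (chr9:54863789-54912530, plus strand), the gene of iron regulatory protein IRP2, was the steadiest of the set and passed the test in no comparison by edgeR, with no p under 0.05 before adjustment. Its level was 39.7, 38 and 42.1 CPM in WT-Sham, 29.2, 36.2 and 32.8 in miKO-Sham, 38.5, 36.2 and 35.7 in WT-tFCI and 27.7, 36.7 and 29.5 in miKO-tFCI. Apart from the Sham groups, where miKO lay below WT, the compared groups overlapped. Its log2 fold change was -0.29 in miKO-Sham vs. WT-Sham (95% confidence interval -0.59 to 0.01), -0.24 in miKO-tFCI vs. WT-tFCI (-0.54 to 0.06), -0.11 in WT-tFCI vs. WT-Sham (-0.41 to 0.19) and -0.06 in miKO-tFCI vs. miKO-Sham (-0.37 to 0.24). Its depth was 210 to 410 counts per library. Scaled by total counts alone, which shifts the median of all genes by -0.27 in miKO-Sham vs. WT-Sham, *Ireb2* passed there (-0.57, edgeR adjusted p = 0.0105).

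Read by their hairpins, the 3 genes with a 5′ match did not move together with surgery, since *Fth1* and *Ftl1* rose and *Slc40a1* fell. All 3 were higher in miKO-Sham than in WT-Sham, the call on *Slc40a1* being lost in 7 of 28 alternatives. *Slc11a1* (log2 fold change 1.60) and *Slc11a2* (0.75), in which no match was found, were higher there too. *Tfrc*, with 3′ matches, did not pass in that comparison, nor did *Cp* and *Ireb2*, without a match. Marker lists of other cells differed with the genotype in Sham mice. The sum of 10 border-associated macrophage markers was 584 to 721 CPM in WT-Sham and 1430 to 1690 in miKO-Sham, of which *Stab1* gave 445 to 583 and 1070 to 1580, while *Mrc1* was 32.7 to 42.8 and 17.5 to 81.7. That list was 733 to 1060 CPM in WT-tFCI and 1060 to 2220 in miKO-tFCI, and 3 of its 10 genes were higher in miKO-Sham, 4 in miKO-tFCI than in WT-tFCI. Red cell markers, 9 of 10 matched, summed to 4.51 to 18 CPM in WT-Sham, 22.3 to 68.8 in miKO-Sham, 6.82 to 32 in WT-tFCI and 5.4 to 29.9 in miKO-tFCI. Their part in the differences of the iron genes was not tested.

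A wider list of 61 other genes of iron and haem handling was read in the same fit, and 51 of them were tested. In WT-tFCI vs. WT-Sham 18 rose and 6 fell, beside 23.5% and 15.4% of all genes, with a median log2 fold change of 0.24 against 0.02 for all genes. Without both tFCI libraries of batch 1, 14 rose and 6 fell. Among genes of uptake and iron reduction 6 of 9 rose, of which *Steap4* and *Scara5* stayed at or under 3 counts in every WT-Sham library. *Steap2*, a metalloreductase, rose from 0.372 ± 0.133 CPM to 8.26, 4.27 and 1.58 CPM (log2 fold change 3.51, edgeR adjusted p = 0.000178). *Steap1*, *Steap3*, *Steap4* and *Scara5* were likewise highest in WT-tFCI replicate 1, the library of its group richest in choroid plexus, astrocyte and endothelial markers, whose part in these values was not tested. *Epas1*, the hypoxia factor HIF-2α, which induces iron genes in other tissues, rose from 0.337 ± 0.307 to 10.2 ± 10 CPM (SD, n = 3), and the sum of 10 endothelial markers, cells in which *Epas1* is abundant, was 83.2 to 87.1 CPM in WT-Sham and 178 to 372 in WT-tFCI. *Flvcr2*, of the haem exporter family, rose from 0.137 ± 0.237 to 1.34 ± 0.447 CPM (log2 fold change 3.06, edgeR adjusted p = 0.0446). *Zfp36*, whose product binds and destabilises AU-rich transcripts, fell from 7511 ± 810 to 3518 ± 242 CPM (-1.09, edgeR adjusted p = 8.47e-05). The mitochondrial iron importer *Slc25a37* (-0.88) and the haem synthesis enzyme *Ppox* (-0.59) fell as well. *Hmox1*, the haem-degrading enzyme that frees iron, chosen after its values were seen, rose from 93 ± 19.5 to 226 ± 25.4 CPM (1.27, edgeR adjusted p = 0.000709).

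In miKO-tFCI vs. miKO-Sham 20 of the 51 rose and 8 fell, beside 24.5% and 17.7% of all genes, with a median of 0.22 against 0.03. Without both tFCI libraries of batch 1, 17 rose and 6 fell. *Scara5*, a ferritin receptor, rose from 0.310 ± 0.272 to 7.06 ± 3.29 CPM, and *Epas1* and the endosomal reductase *Steap3* rose by log2 fold changes of 3.80 and 3.65. *Zfp36* (-1.41), the ferritin autophagy receptor *Ncoa4* (-0.82) and the biliverdin reductase *Blvrb* (-0.74) fell. *Steap4* did not exceed 3 counts in any miKO-Sham library and had 8.06 ± 4.11 CPM in miKO-tFCI, and no fold is given for it there.

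In miKO-Sham vs. WT-Sham 8 of the 51 were higher and 3 lower, with a median of 0.22 against 0.04, beside 9.94% and 8.12% of all genes. *Blvrb* was higher, with 232, 242 and 141 CPM against 60.3, 37.8 and 34.6 (log2 fold change 2.23, edgeR adjusted p = 5.22e-06), and so was transferrin itself (*Tf*), with 4600, 4370 and 3640 CPM against 1220, 1630 and 1700 (1.50, edgeR adjusted p = 0.000128). *Steap2* was higher at 1.44 ± 0.312 CPM against 0.372 ± 0.133. *Slc25a37* was lower, with 29.7, 32.2 and 36.4 CPM against 93.4, 77.2 and 78.8 (-1.35, edgeR adjusted p = 2.94e-05), and *Zfp36* (-0.49) and *Ppox* (-0.48) were lower too.

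In miKO-tFCI vs. WT-tFCI 13 of the 51 were higher and 3 lower, beside 4.50% and 5.40% of all genes, with a median of 0.19 against 0.04. Without both tFCI libraries of batch 1, 11 were higher and 1 lower. In the WT-tFCI libraries *Steap4* held 4 to 20 counts and *Scara5* 6 to 17. *Steap4* (log2 fold change 2.63), *Scara5* (2.58) and the siderophore carrier *Lcn2* (2.48, 130 ± 36.9 against 22.1 ± 1.24 CPM) were higher, and the metal importer *Slc39a8* (-0.89), *Zfp36* (-0.81) and *Ppox* (-0.45) were lower. *Lcn2* is also stored in neutrophil granules. The sum of 10 neutrophil markers was 956 to 1200 CPM in miKO-tFCI against 524 to 576 in WT-tFCI, with 5 called higher and 1 lower by edgeR. *Csf3r* gave 231 to 283 and 338 to 375 CPM of these sums. The sum was 634 to 1330 CPM in WT-Sham and 1080 to 1110 in miKO-Sham, of which *Csf3r* gave 544 to 587 and 730 to 784. In these Sham groups *Lcn2* stood at 12.5 ± 17.1 and 20.55 ± 2.32 CPM. In WT-Sham replicates 1, 2 and 3 the sum was 1330, 638 and 634 CPM, and *Lcn2* was 32.2, 2.91 and 2.36 CPM. The part of neutrophils in the level of *Lcn2* was not tested. Without WT-tFCI replicate 2, WT-tFCI replicate 3 or miKO-tFCI replicate 3, the number of genes called fell from 16 to 8, 7 and 9. In the interaction 2 of 51 passed (3.92%, beside 3.82% of all genes): *Slc25a37*, whose genotype effect was 1.05 less negative after tFCI (edgeR adjusted p = 0.0172), and *Blvrb*, whose genotype effect was lower after tFCI by 1.12 (edgeR adjusted p = 0.0494). Without WT-tFCI replicate 3 the count was 0 in edgeR, and it was 1 without WT-Sham replicate 2, miKO-Sham replicate 1 or 2, WT-tFCI replicate 2 or miKO-tFCI replicate 3. With genes that stayed at or under 3 counts in a whole group set to the bound that 3 counts in each library of it allow, the medians of the wider list in the 4 comparisons were 0.24, 0.22, 0.23 and 0.19.

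**Figure D5:**
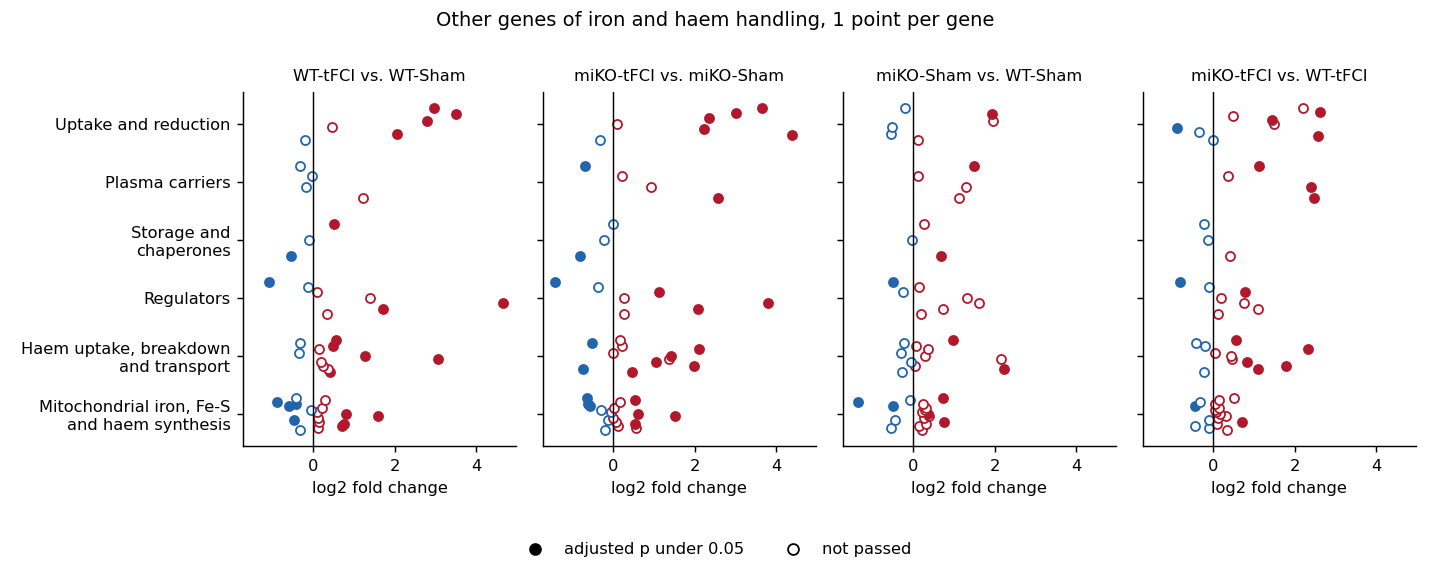
Log2 fold change of the other genes of iron and haem handling in the 4 comparisons between groups, 1 point per gene tested, by role. Filled points have an edgeR adjusted p under 0.05, open points do not, and genes that did not exceed 3 counts in any library of one of the groups (3, 2, 3 and 0 of 51 in panel order) are left out; the point farthest to the right is *Epas1* at 4.66 in WT-tFCI vs. WT-Sham and *Scara5* at 4.39 in miKO-tFCI vs. miKO-Sham.

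For each member, the genes whose pattern over the 12 libraries was most like it were found by the correlation of batch-adjusted log2 CPM among 7168 expressed genes. These values describe how libraries of 4 groups order 2 genes, and the groups set most of them. The gene nearest to *Fth1* was *Slc48a1* (r = 0.985), the haem transporter of the lysosome, which stood at 43.2 ± 1.80 CPM in WT-Sham, 85.2 ± 10.6 in miKO-Sham, 64.2 ± 2.57 in WT-tFCI and 95.2 ± 5.13 in miKO-tFCI (SD, n = 3), followed by *Dnase1l1* (0.983). Nearest to *Slc11a1* was *Trf*, the annotation's symbol for transferrin (0.989), and then *Lilra5* (0.989). *Ftl1* was nearest to *Flna* (0.993) and *Adam8* (0.989), *Slc40a1* to *Sirpa* (0.986) and *L3mbtl2* (0.979), and *Cp* to *Serpinb9* (0.993) and *Ppp2r1a* (0.983). *Tfrc* was nearest to *Psmc4* (0.968) and *Mindy1* (0.944), *Slc11a2* to *Apoe* (0.976) and *Mpeg1* (0.974), and *Ireb2*, which varied least, to *Ints3* (0.921) and *Upf3b* (0.891).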

How the data were processed

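Counts per gene were deposited by the authors without normalization, 1 table per library. Per the labels, cDNA was made with a SMART-Seq v4 kit from 10 ng of RNA and read in pairs of 150 bases, and the submitters' processing notes name FastQC 0.11.9, Trim Galore, HISAT2 2.2.1, SAMtools, HTSeq 1.99.2 and the builds mm10 and GRCm38.p6. Reads on genes were 30.7% to 38.5% of each library, and rows for reads on no gene, 61.5% to 69.3%, were left out of library sizes. Symbols came from GENCODE M21, which matched 55141 of 55401 identifiers.

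The counts were passed to edgeR 4.0.16 under R 4.3.3: filterByExpr, TMM (factors 0.864 to 1.11) and 1 quasi-likelihood fit of group and batch over 12 libraries (common biological coefficient of variation 0.199), with Benjamini-Hochberg adjustment over 16451 genes. DESeq2 1.42.0, limma 3.58.1, other filters and scalings, single batches and each library left out were alternatives, and the scripts were tested on simulated data. Intervals cover 95%. Likeness used log2 CPM with a prior count of 2. Members and lists were chosen with earlier results of these data known. From the wider list, the 3 genes that changed most in each direction, leaving out genes that did not exceed 3 counts in any library of a group, were named, and 2 like genes per member with a mean log2 CPM of at least 4. Replicate numbers were not used to pair the samples. After group and batch, same-numbered libraries of replicates 2 and 3 correlated at -0.198 to 0.0855. Replicate 1 is the whole of batch 1 and could not be checked apart from it. After group alone the correlations were 0.0978 to 0.666 for replicate 1, -0.0607 to 0.334 for replicate 2 and 0.11 to 0.324 for replicate 3.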

Additional observations from a re-analysis of the deposited data

Results flagged for a closer look

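The genotype effect on *Cp* differed between surgeries. It was a log2 fold change of 1.51 (SE 0.34) in miKO-tFCI vs. WT-tFCI and -0.47 (SE 0.37) in miKO-Sham vs. WT-Sham, a difference of 1.98 (SE 0.50, edgeR adjusted p = 0.0393 over all genes tested). Of the 8 iron genes it was the 1 that passed this test, beside 3.82% of all genes. The miKO value was below the WT value in both batches of Sham (-0.41 and -0.58) and above it in both batches of tFCI (1.40 and 1.58). The low Sham values were those of miKO-Sham replicates 1 and 2 (10.1 and 8.74 CPM), while replicate 3 had 19.1 CPM and WT-Sham 13.6 to 19.5. With replicates 1 and 2 averaged, the value in Sham was -0.11 and the interaction 1.62 (edgeR adjusted p = 0.0962). The tFCI libraries of batch 1 had choroid plexus marker sums of 5070 and 12700 CPM. Without both of them the interaction was 2.02 (edgeR adjusted p = 0.00476). The call was lost in 10 of 27 alternatives, with adjusted p values from edgeR, DESeq2 and limma between 2.65e-11 and 0.128 over all of them.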

How the results depend on the processing

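No result on a member or on *Hdac3* changed its sign while called, in any alternative run. For the wider list only the numbers of calls were compared, not the sign of each gene. Of the 8 members, 5 passed in WT-tFCI vs. WT-Sham without the filter on low counts and 6 when only the groups compared were fitted, and the count was 3 to 5 with 1 library left out. In miKO-tFCI vs. WT-tFCI 2 passed without the batch term. In the interaction 2 passed without the filter, 0 by edgeR without the batch term and 0 with miKO-Sham replicates 1 and 2 averaged, and the count was 0 to 2 with 1 library left out (by edgeR with all libraries, 3 had an unadjusted p under 0.05). Of the wider list, 7 passed in miKO-Sham vs. WT-Sham without the batch term. In miKO-tFCI vs. WT-tFCI 10 passed without it, and 7 to 17 with 1 library left out. In the interaction 9 passed without the filter, 4 by DESeq2, 1 without the batch term, 1 with the averaged pair, and 0 to 3 with 1 library left out. *Hdac3* in miKO-Sham vs. WT-Sham was -0.43 within batch 1, and in miKO-tFCI vs. WT-tFCI it ran from -0.87 to -0.64 with 1 library left out. *Slc40a1* in miKO-Sham vs. WT-Sham also lost its call without the batch term, in batch 2 alone and with scaling by total counts. That scaling shifted the median of all genes by -0.27 in miKO-Sham vs. WT-Sham, 0.12 in miKO-tFCI vs. miKO-Sham and 0.17 in the interaction, and the other scalings by at most 0.05. The fit with the replicate block gave 6360, 6960, 2908, 1610 and 612 calls over all genes against 6402, 6957, 2972, 1629 and 629, and the pairing changed no call of a member. The causes were not tested. Genes with few counts, *Tfrc* first, carry the largest counting error.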
